A study of Mus musculus with 4 samples.

Results

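The genes described here are 10 genes of the immediate early response, most of them encoding transcription factors, chosen by name out of the 55820 loci in the table: the JUN family genes *Jun*, *Junb* and *Jund*, the FOS family genes *Fos*, *Fosb*, *Fosl1* and *Fosl2*, the related basic leucine zipper gene *Atf3*, and the immediate early genes *Egr1* and *Ier2*. All 10 were found by their symbols, and all 10 were among the 20561 loci that passed the filter on low counts. They were measured by RNA sequencing of total RNA from whole testes of male C57BL/6J mice at postnatal day 10 (P10), with 2 libraries labelled control and 2 labelled Mps1sKO. In Mps1sKO mice a *Stra8*-cre transgene, which is active from early spermatogonia to preleptotene spermatocytes, deletes the *Mps1* gene in germ cells, while the somatic cells of the testis keep it. The labels do not say which floxed or Cre alleles the control mice carried, nor whether each library came from 1 mouse, so p-values measure only the spread between these libraries.

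JUN and FOS proteins pair through their leucine zippers to form AP-1, a family of dimers that bind DNA and turn transcription up or down according to their makeup. JUN proteins can pair with each other, FOS proteins need a JUN partner, and ATF3 can pair with JUN proteins. Immediate early genes are transcribed within minutes of a growth signal, a stress or the handling of a tissue, without new protein synthesis, and their RNAs decay quickly. In the testis AP-1 genes are active in germ cells and in somatic cells such as Sertoli cells, and in a whole-tissue library fewer cells of a type and less RNA per cell cannot be told apart.

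The promoters of 3 of these genes are shown: *Junb* and *Fos*, which were high in the same control library, and *Jun*, which was low in it. No level below was derived from these sequences, and a link of their motifs to the levels was not tested. Each sequence is the 250 bases before the RefSeq start of the gene on GRCm38.p6, read 5′ to 3′ on the strand of the gene, and capitals mark the motifs found in it.
*Junb* (chr8:84978749-84978998, minus strand): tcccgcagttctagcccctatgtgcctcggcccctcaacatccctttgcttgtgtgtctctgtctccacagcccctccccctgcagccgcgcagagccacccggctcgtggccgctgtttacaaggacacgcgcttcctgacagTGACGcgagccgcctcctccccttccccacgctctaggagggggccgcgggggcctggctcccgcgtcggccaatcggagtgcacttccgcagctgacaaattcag
*Fos* (chr12:85473640-85473889, plus strand): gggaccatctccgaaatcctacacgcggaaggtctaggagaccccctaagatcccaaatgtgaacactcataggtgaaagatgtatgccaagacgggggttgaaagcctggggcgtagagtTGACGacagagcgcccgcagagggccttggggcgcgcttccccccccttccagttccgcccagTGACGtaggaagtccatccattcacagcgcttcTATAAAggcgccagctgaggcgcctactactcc
*Jun* (chr4:95052223-95052472, minus strand): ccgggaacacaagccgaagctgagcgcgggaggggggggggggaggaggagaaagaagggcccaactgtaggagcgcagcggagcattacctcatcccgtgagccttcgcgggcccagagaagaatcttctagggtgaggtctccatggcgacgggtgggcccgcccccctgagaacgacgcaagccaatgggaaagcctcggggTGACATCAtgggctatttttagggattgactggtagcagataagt

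The capitals in the *Fos* promoter are TGACG, the start of the cAMP response element, 129 to 125 and again 66 to 62 bases before the start, and the TATA box TATAAA, 33 to 28 bases before it. In the *Junb* promoter TGACG lay 106 to 102 bases before the start, and in the *Fosl2* promoter, which lies within the GENCODE model of the gene and is not printed, the EGR site GCGNGGGCG lay 79 to 71 bases before the RefSeq start. The *Jun* promoter held TGACATCA, a variant of the AP-1 site, 45 to 38 bases before the start. Promoters were given for 7 of the 10 genes, while *Egr1*, *Fosl1* and *Ier2* had none and were not searched. Among the 7, *Fosb* had TGACG and GCGNGGGCG, *Atf3* had TGACG on the opposite strand, and *Jund* held none of the motifs. The full response element TGACGTCA, the AP-1 site TGANTCA and the CArG box bound by serum response factor were searched on both strands too, and none of these letters stood in the 7 windows. Bases more than 250 before the start were not searched, so these genes may hold such sites farther away. Among the 32851 mouse promoters of this length, 17.8% held TGACG, 12.4% TATAAA, 6.75% TGANTCA, 4.70% GCGNGGGCG, 2.93% TGACATCA, 1.55% TGACGTCA and 1.47% the CArG box. TGACG is part of TGACGTCA, so these 2 counts overlap, and a match describes letters and not a site in use.

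Levels of different genes were compared per length, with the FPKM values (fragments per kilobase of gene, scaled to the library size) that the authors deposited. *Jun* was the highest, at 26.1 ± 5.12 FPKM (mean ± SD over the 4 libraries), ahead of *Ier2* at 17.3 ± 2.23 and *Egr1* at 7.80 ± 1.09. *Fosl2* at 5.35 ± 1.69, *Junb* at 4.86 ± 3.29, *Atf3* at 4.33 ± 0.767 and *Jund* at 4.19 ± 1.16 followed, and neighbours among these 4 did not keep their order in every library. *Fos* was at 1.29 ± 0.429 FPKM, *Fosl1* at 0.253 ± 0.102 and *Fosb* at 0.169 ± 0.0240. The order held in all 4 libraries from *Jun* down to *Fosl2*, from *Jund* to *Fos* and from *Fos* to *Fosl1*. *Fosl1* lay above *Fosb* in 3 libraries, as did *Fosl2* above *Junb*, while *Junb* lay above *Atf3* and *Atf3* above *Jund* in 2 libraries each. In control 2 *Junb*, at 9.73 FPKM, lay above both *Fosl2*, at 7.84, and *Egr1*, at 9.35.

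**Figure D1:**
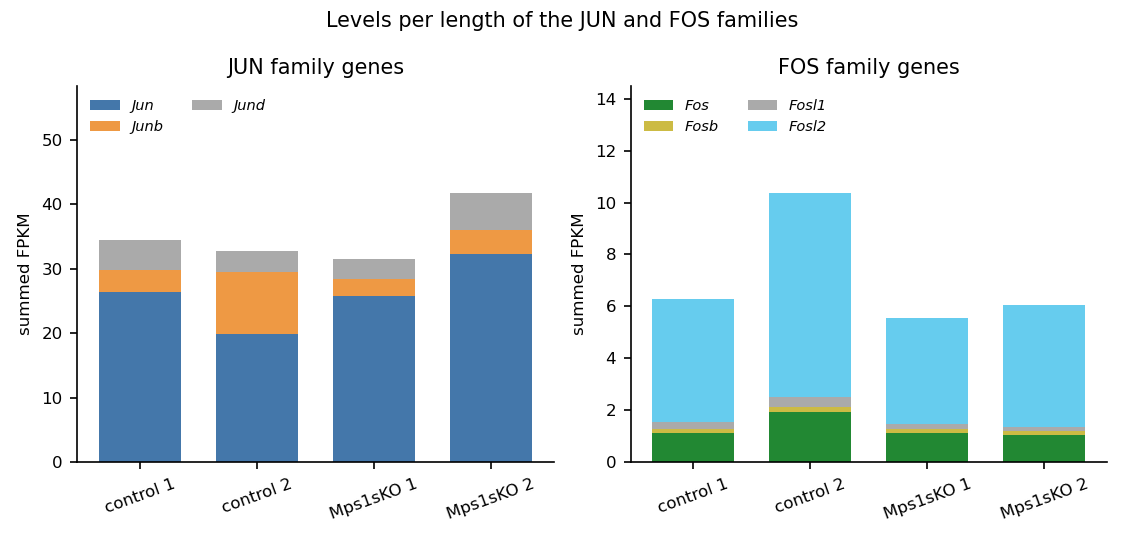
Summed FPKM of the JUN family genes (left) and of the FOS family genes (right) in each of the 4 libraries, with 1 colour for each gene. *Jun* formed most of the JUN family sum in every library, *Junb* rose to 29.7% of it in control 2, and *Fosl2* formed between 73.8% and 77.5% of the FOS family sum.

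Within the families 1 gene led each. *Jun*, the founding partner of AP-1, made up 76.6% and 60.3% of the summed FPKM of the JUN family in the control libraries, in the order of their numbers, and 81.8% and 77.5% in the Mps1sKO libraries. The share of *Junb*, which encodes a partner with weaker activating power, was 9.93% in control 1 but 29.7% in control 2, and 7.98% and 9.0% in the Mps1sKO libraries. The family sum itself was 34.5, 32.8, 31.6 and 41.7 FPKM in control 1, control 2, Mps1sKO 1 and Mps1sKO 2. Control 2 thus had the makeup that differed most, with more *Junb* and less *Jun* in a sum inside the range of the other libraries. *Fosl2*, which encodes FRA-2, kept a share of 75.7%, 75.7%, 73.8% and 77.5% of the FOS family sum, although that sum was 10.4 FPKM in control 2 and 6.30, 5.55 and 6.06 in the others.

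None of the 10 genes differed between the genotypes at an adjusted p below 0.05 in edgeR's quasi-likelihood test over all tested loci, where 6 loci (0.0292%) did. At an unadjusted p below 0.05, edgeR gave 2 members, *Junb* and *Fosl2*, against 9.3% of all tested loci. DESeq2 also gave 0 members at an adjusted p below 0.05, against 0.24% of the loci with an adjusted p, with 2 members lacking one, and 2 at an unadjusted p, *Jun* and *Fosl2*, against 3.2%. limma-voom gave 0 members by either measure, where 9.35% of the loci had an unadjusted p below 0.05. Of the 10 genes, 6 had a lower and 4 a higher mean in Mps1sKO testes, and their median log2 fold change was −0.14, beside 0.00027 over all tested loci. With a 1.2-fold change and an unadjusted p of 0.05 as cut-offs, edgeR gave 2 members lower, *Junb* and *Fosl2*, and 0 higher, where 4.95% of the tested loci were lower and 3.09% higher. By the same cut-offs DESeq2 gave 1 member lower, *Fosl2*, and 1 higher, *Jun* (unadjusted p = 0.0418, log2 fold change 0.33), where 1.65% and 1.35% of the loci with a p were.

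**Figure D2:**
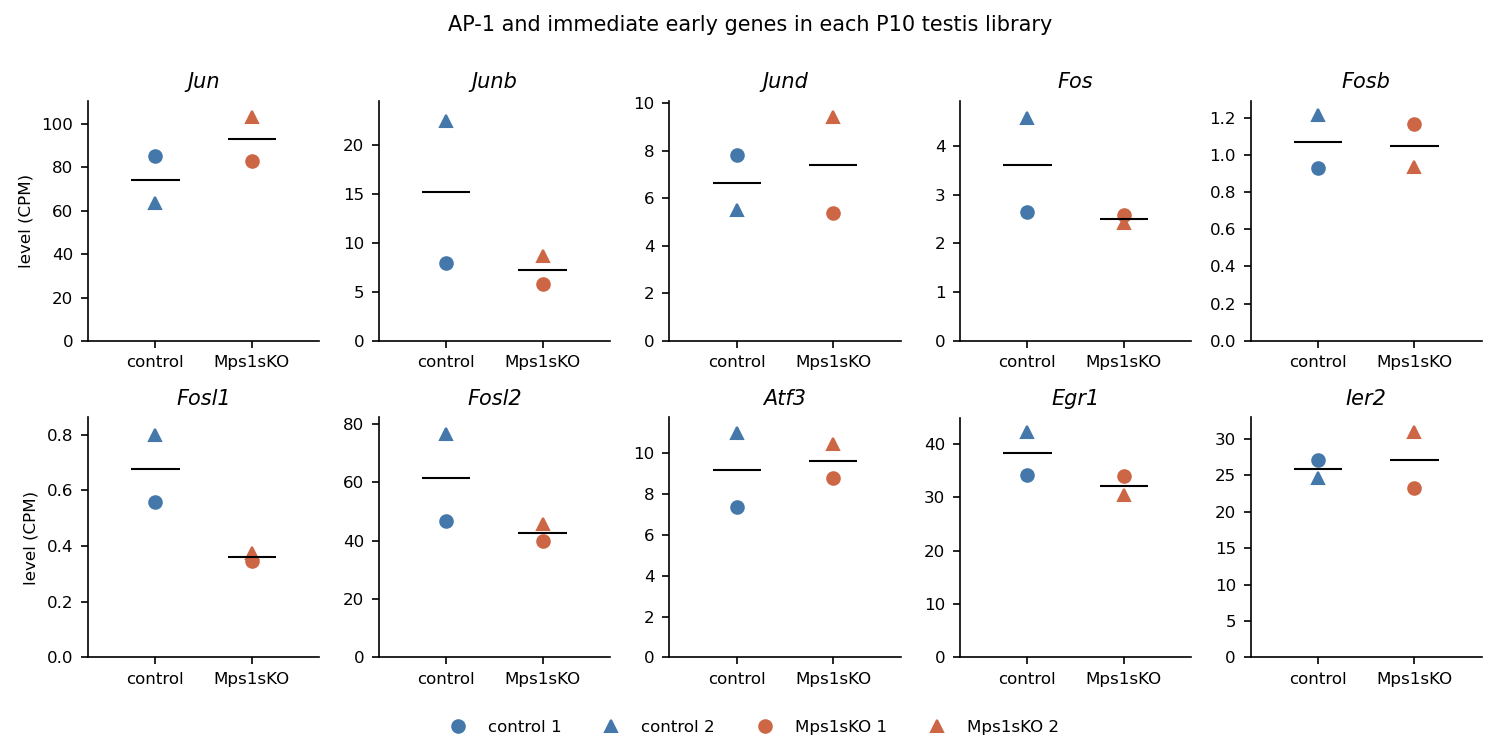
Level in CPM of each gene in each library, with circles for library 1 and triangles for library 2 of a genotype and a line at the mean of the 2 libraries; each panel has its own axis from 0. Control 2 was the highest library for 7 of the 10 genes, and *Fos*, *Fosl1*, *Fosl2* and *Egr1* lay lower in both Mps1sKO libraries than in both control libraries.

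Levels by library are given in CPM, which are counts scaled to the TMM library size. Among the JUN family, *Junb* was at 7.95 CPM in control 1, 22.5 in control 2, 5.83 in Mps1sKO 1 and 8.66 in Mps1sKO 2. The genotypes overlapped, since control 1 lay between the Mps1sKO libraries, and control 2 alone was high. The log2 fold change of Mps1sKO relative to control was −1.07 (standard error, SE, 0.435, 95% interval −2.08 to −0.058, edgeR adjusted p = 0.527). Without control 2 it was −0.13, and without control 1 it was −1.63. Without the filter on low counts, where edgeR called 390 of 35262 loci, *Junb* had an adjusted p of 1.06e-06 and *Fosl2* of 0.00194, so that 2 members passed. *Junb* shares 173 exonic bases with *Prdx2* on the opposite strand, a gene with 6810 to 8860 counts per library, and the strandedness of the counting is not given, so some of its counts may be of that gene.

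*Jun* was at 85.0 and 63.5 CPM in control 1 and 2 and at 82.8 and 103 in Mps1sKO 1 and 2. Control 2 was the lowest and Mps1sKO 2 the highest, and the other libraries of each genotype were close to each other, so the groups overlapped. Its log2 fold change was 0.33 (SE 0.160, 95% interval −0.045 to 0.70, edgeR adjusted p = 0.576), and 0.13 without control 2. *Jun* is among the genes that the study picked as higher from these same libraries, so its direction here is not independent evidence. *Jund*, the JUN gene usually held at a steady level, was at 7.80 and 5.51 CPM in control and 5.39 and 9.40 in Mps1sKO libraries (log2 fold change 0.16, SE 0.284), and both libraries of control fell between those of Mps1sKO.

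In the FOS family, *Fosl2* was at 46.6 CPM in control 1 and 76.4 in control 2, and at 39.8 in Mps1sKO 1 and 45.5 in Mps1sKO 2. The groups did not overlap, but control 1 lay only just above Mps1sKO 2. The log2 fold change was −0.53 (SE 0.210, 95% interval −1.01 to −0.038, edgeR adjusted p = 0.527). Without control 2 it was −0.13, and without control 1 it was −0.84.

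*Fos*, the classic early responder, was at 2.64 and 4.58 CPM in control and at 2.59 and 2.43 in Mps1sKO libraries, so that control 1 and the Mps1sKO libraries lay close together below control 2. Its log2 fold change was −0.53 (SE 0.287, 95% interval −1.20 to 0.14, edgeR adjusted p = 0.602), and −0.07 without control 2. *Fosl1*, which encodes FRA-1, had only 15 and 23 counts in control and 8 and 10 in Mps1sKO libraries, or 0.557, 0.797, 0.345 and 0.373 CPM. Both Mps1sKO libraries were lower than both controls, with a log2 fold change of −0.91 (SE 0.429, edgeR adjusted p = 0.565), and *Fosl1* shares 1163 exonic bases with *Ccdc85b* on the opposite strand, which had 751 to 1209 counts. *Fosb*, with 25 to 35 counts per library, was at 0.928 and 1.21 CPM in control and 1.17 and 0.933 in Mps1sKO libraries, and the groups overlapped (log2 fold change −0.04).

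Of the remaining genes, *Atf3*, a stress-induced partner of JUN proteins, was at 7.35 and 11.0 CPM in control and 8.76 and 10.4 in Mps1sKO libraries, with a log2 fold change of 0.064 (SE 0.213). *Egr1*, a zinc finger factor induced by growth signals, was at 34.2 and 42.2 CPM in control and 33.9 and 30.5 in Mps1sKO libraries. The *Egr1* groups did not overlap, though control 1 and Mps1sKO 1 were nearly level, and the log2 fold change was −0.25 (SE 0.129, edgeR adjusted p = 0.589), −0.09 without control 2 and −0.39 without control 1. *Ier2*, a small nuclear protein gene of the same response, was at 27.1 and 24.7 CPM in control and 23.3 and 31.0 in Mps1sKO libraries, with both controls between the Mps1sKO libraries and a log2 fold change of 0.07. For *Jund*, *Fosb*, *Atf3* and *Ier2* the edgeR adjusted p lay between 0.887 and 0.983. Counting only groups that did not overlap, 4 of the 10 genes were lower in both Mps1sKO libraries than in both controls, against 21.1% of all tested loci, and 0 were higher, against 20.3%.

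**Figure D3:**
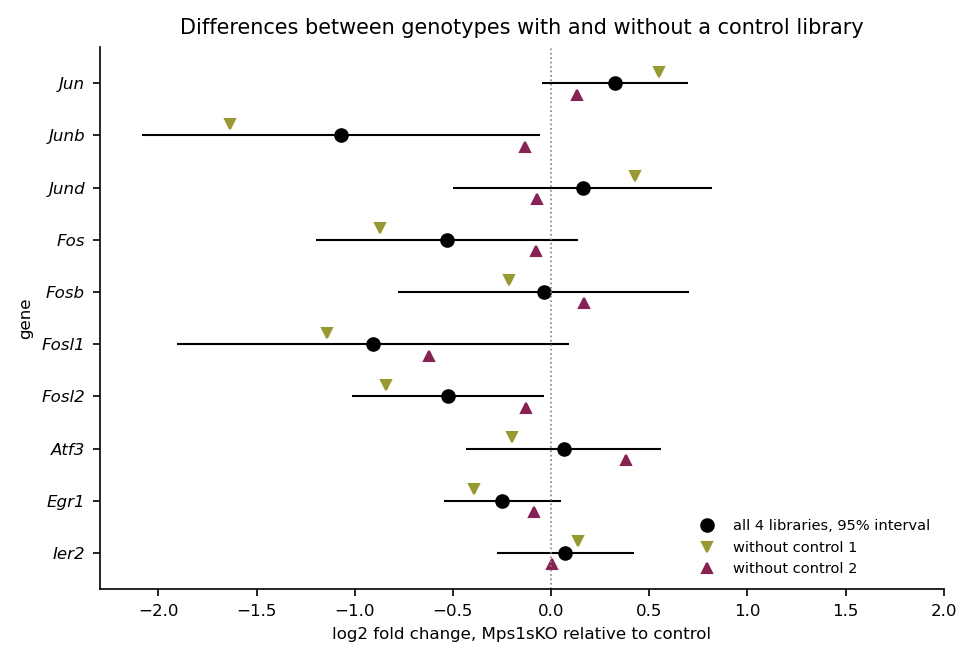
Log2 fold change of Mps1sKO relative to control for each gene in edgeR's fit to all 4 libraries (black circles, bars are 95% intervals) and in fits without control 1 (downward triangles) or without control 2 (upward triangles). Without control 2 the values of *Junb*, *Fosl2* and *Fos* moved to −0.13, −0.13 and −0.07.

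Most of these differences rested on control 2. It was the highest library for 7 of the 10 genes, beside 28.0% of all tested loci, and Mps1sKO 2 was the highest for the other 3, *Jun*, *Jund* and *Ier2*. For 9 of the 10 genes, the libraries of 1 genotype differed from each other by more than the genotypes did, beside 71.4% of all tested loci. *Fosl1*, with its low counts, was the exception. The median absolute log2 difference of the members between replicates was 0.51 in control and 0.28 in Mps1sKO, beside 0.15 and 0.19 over all tested loci. Without control 2 the median log2 fold change of the 10 genes was −0.07, beside −0.14 with all 4 libraries. In that fit *Fosl1* was still at −0.62, and *Atf3* rose to 0.38.

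The ratio of control 2 to control 1 was 2.84 for *Junb*, a log2 difference of 1.50 (95% exact binomial interval 1.28 to 1.73, for counting error only). Among the 1000 tested loci nearest to *Junb* in level, the median absolute difference of these libraries was 0.15, and 99.7% differed by less than *Junb*. *Fos* stood at 1.74-fold, *Fosl2* at 1.64-fold, *Atf3* at 1.49-fold and *Egr1* at 1.23-fold in control 2 relative to control 1, and these intervals excluded 0 on the log2 scale. *Jun* went the other way, at 0.747-fold, as did *Jund*, at 0.707-fold. The interval excluded 0 for 7 of the 10 genes in the control pair and for 6 in the Mps1sKO pair, where it did so for 32.4% and 38.0% of all tested loci. In the Mps1sKO pair *Jund* at 1.74-fold and *Junb* at 1.49-fold differed most.

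**Figure D4:**
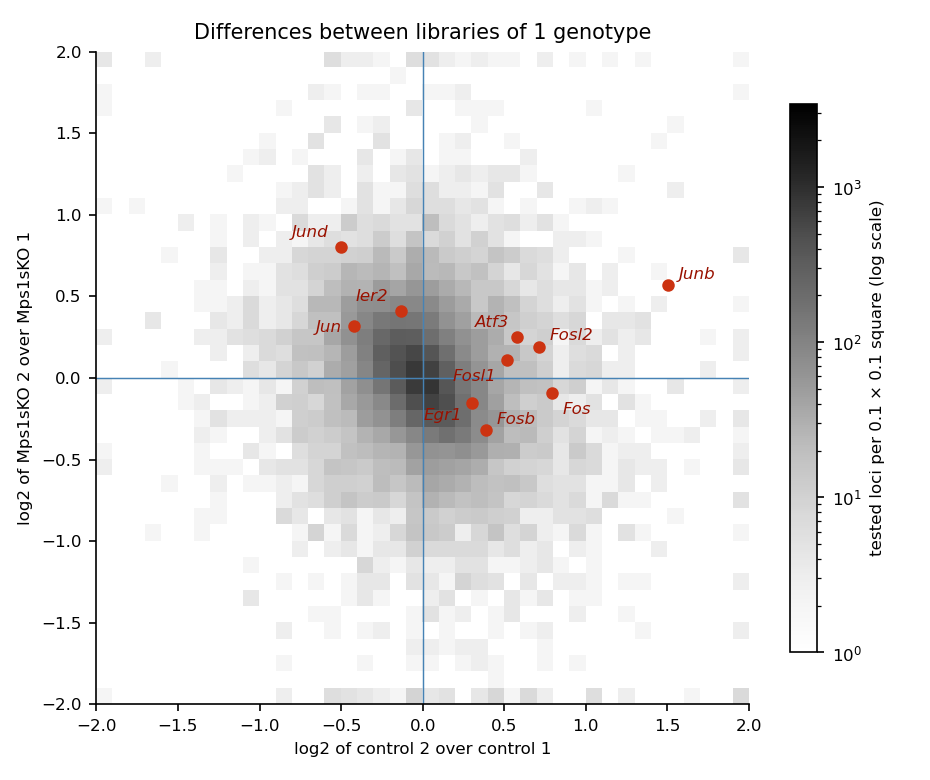
Log2 ratio of library 2 to library 1 in control (horizontal) and in Mps1sKO (vertical), with the 10 genes as red points over the number of tested loci in each square of 0.1 by 0.1 (grey, log scale; values beyond 2 in either direction are counted in the outermost squares). *Junb* lies far to the right, at 1.50, and *Jun*, *Jund* and *Ier2* lie at the upper left.

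The genes fell into 3 patterns by the direction of these differences. *Junb*, *Fosl1*, *Fosl2* and *Atf3* were higher in library 2 of both genotypes. *Jun*, *Jund* and *Ier2* were lower in control 2 and higher in Mps1sKO 2, and *Fos*, *Fosb* and *Egr1* were the reverse. Transcripts rich in G and C moved in the direction of the *Jun* pattern: among loci with at least 60% and under 65% GC, the median log2 difference was −0.17 in the control pair and 0.18 in the Mps1sKO pair, and it was 0.037 and −0.054 among loci of 40% to 45%. *Jund* has 67.1% GC in its longest transcript, *Ier2* 60.9% and *Jun* 55.5%, and the medians for loci of 55% to 60% were −0.094 and 0.097, smaller than the −0.42 and 0.32 of *Jun*. *Fosl1* (58.5% GC), *Egr1* (57.3%) and *Fosb* (56.0%) are in the class of *Jun*, but were higher in control 2, with log2 differences of 0.52, 0.30 and 0.39. *Fosl2*, *Atf3* and *Fos*, also higher in control 2, have 53.1%, 52.2% and 51.9% GC. *Junb*, at 62.6% GC, was higher in control 2, against the direction of its GC class, and the part of GC content in these differences was not tested beyond a fit with a GC offset, in which no member passed an adjusted p of 0.05 and *Junb* was at −1.13.

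The likeness of other loci to *Fos* was measured as the Euclidean distance of centred log2 CPM over the 4 libraries, among loci with at least 1 CPM on average. *Fosl2* ranked 27 of 17042, *Egr1* 499, *Fosb* 1805 and *Atf3* 3286. *Junb*, with a larger rise in control 2 than *Fos*, ranked 9938, and *Ier2*, *Jun* and *Jund* ranked 12870, 16351 and 16510. The nearest 10 loci were *Gdap1*, *Luzp4*, *Mlph*, *Gm13552*, *Irx2*, *Gm15697*, *Gm1600*, *Ago4*, *1700105P06Rik* and *Gm4961*, none of them a gene of the lists below, and with 4 libraries many loci have a like shape.

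Beyond the members, a list of 44 other immediate early genes was measured, of which *Egr2* had 0 counts in every library. Of the 43 tested, 29 had a lower and 14 a higher mean in Mps1sKO testes (median log2 fold change −0.098, beside 0.00027 over all tested loci). At an unadjusted p below 0.05 in edgeR, 7 were lower and 2 higher, beside 9.3% of all tested loci in either direction, and 0 passed an adjusted p of 0.05. The groups did not overlap for 14 lower and 3 higher genes, beside 21.1% and 20.3% of all tested loci. In control 2, 16 of the 43 had their highest value and 12 their lowest, beside 28.0% and 28.1% of all tested loci.

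The orphan nuclear receptor genes *Nr4a1*, *Nr4a2* and *Nr4a3* were also highest in control 2. *Nr4a1* was at 32.3 and 106 CPM in control 1 and 2 and at 27.5 and 33.1 in Mps1sKO libraries, so that the groups overlapped and control 2 stood alone. Its log2 fold change was −1.19 (SE 0.451, edgeR adjusted p = 0.515), and −0.09 without control 2. *Nr4a2* was at 5.38, 11.5, 4.01 and 4.37 CPM in the same order of libraries (log2 fold change −1.01, and −0.36 without control 2), and *Nr4a3*, named after its values were seen, at 1.45, 3.54, 1.34 and 1.19. Without control 1 the log2 fold changes of *Nr4a1*, *Nr4a2* and *Nr4a3* were −1.80, −1.45 and −1.48. When low counts were not filtered, *Nr4a1* and *Nr4a2* passed an adjusted p of 0.05 in edgeR, as did 390 of 35262 loci.

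The genes of the MAP kinase phosphatases, which switch off the kinases upstream of AP-1, did not share a direction. *Dusp1* was at 14.0 and 11.5 CPM in control and 9.45 and 10.0 in Mps1sKO libraries (log2 fold change −0.39), and *Dusp2* at 7.06 and 6.00 against 4.62 and 4.55 (−0.51). *Dusp6* was at 38.2 and 37.8 CPM in control and 49.2 and 47.0 in Mps1sKO libraries (log2 fold change 0.34, SE 0.0923, edgeR adjusted p = 0.494). In all of these 3 the groups did not overlap and control 2 was not the highest library, unlike *Junb* and the *Nr4a* genes. *Ccn2*, a matricellular growth factor gene, was at 68.9 CPM in both control libraries and at 54.4 and 60.6 in Mps1sKO libraries (log2 fold change −0.26). Named after their values were seen, *Ptgs2* was at or below 0.624 CPM in every library (log2 fold change −1.80), and *Nfkbiz* at 13.3 and 13.2 against 15.6 and 16.9 CPM (0.30).

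**Figure D5:**
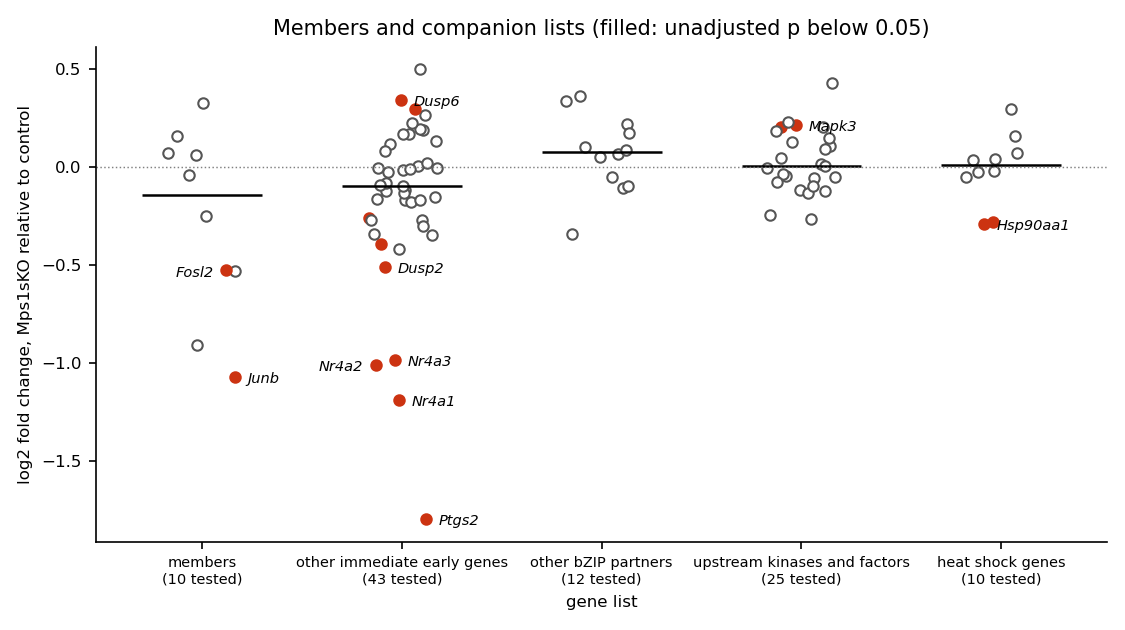
Log2 fold change of Mps1sKO relative to control for each tested gene of 5 lists, with filled points for an unadjusted p below 0.05 in edgeR's test and a line at the median of each list. No gene passed an adjusted p of 0.05, and the lowest values are those of *Ptgs2*, which had few counts, *Nr4a1*, *Junb*, *Nr4a2* and *Nr4a3*.

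The remaining lists hold genes that act with or upstream of AP-1 and heat shock genes. Of 12 other basic leucine zipper partners, 4 were lower and 8 higher (median log2 fold change 0.075), and 0 had an unadjusted p below 0.05. Among them *Atf7*, *Batf3* and *Jdp2* had log2 fold changes of 0.18, −0.34 and 0.22. Of 25 kinases and factors upstream of AP-1, 12 were lower and 13 higher (median 0.0049), and 2 had an unadjusted p below 0.05 in edgeR, both higher. *Mapk3*, which encodes the kinase ERK1, was at 163 and 150 CPM in control and 182 and 181 in Mps1sKO libraries (log2 fold change 0.21, SE 0.0883, edgeR adjusted p = 0.529), and *Mapk9*, which encodes the JUN kinase JNK2, at 290 and 295 against 349 and 326 (0.21). *Map2k4*, which activates JNK, and *Mapk10*, which encodes JNK3, had log2 fold changes of 0.20 and −0.27. Of 10 heat shock genes, which answer to protein damage, 5 were lower and 5 higher, with a median of 0.0096, and the 2 with an unadjusted p below 0.05 were both lower. The chaperone gene *Hsp90aa1* was at 922 and 1035 CPM in control and 814 and 789 in Mps1sKO libraries (log2 fold change −0.29), *Hspe1* had −0.28, and *Hspb1* overlapped between the groups. Over the 4 lists, 13 genes had an unadjusted p below 0.05 with edgeR, 11 with limma-voom and 5 with DESeq2, beside 9.3%, 9.35% and 3.2% of all loci these tools tested, and each tool gave 0 at an adjusted p below 0.05.

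The libraries held 26819122 and 28607746 counts in control and 23311689 and 27093849 in Mps1sKO, so a floor of 3 counts stood at 0.104 to 0.129 CPM. *Ttk*, which encodes MPS1, was at 27.9 and 32.6 CPM in control and 13.0 and 12.2 in Mps1sKO libraries (log2 fold change −1.26, edgeR adjusted p = 0.0461). Some of the cell type marker lists moved with both the genotype and control 2. All 6 meiotic markers were lower in both Mps1sKO libraries than in both controls, beside 21.1% of all tested loci. All 6 were also highest in control 2, beside 28.0% of all tested loci. Their summed level was 287 and 382 CPM in control and 241 and 199 in Mps1sKO. Of 11 tested Sertoli cell markers all 11 had a higher mean in Mps1sKO testes, as did 10293 of all 20561 tested loci. Control 2 was the lowest library for 8 of them, as for *Jun*, beside 28.1% of all tested loci. The Sertoli sums were 5928 and 6431 CPM in control and 7802 and 6904 in Mps1sKO, so control 2 was not lowest by sum. *Clu* formed a large part of these sums, at 2900 and 3586 CPM in control and 4399 and 3319 in Mps1sKO libraries. The adipocyte genes *Fabp4* and *Car3* were at 4.47 and 4.06 CPM in control 2 and at most 1.04 in the others, and *Adipoq* and *Cfd*, at 0.797 and 0.555 CPM, were highest there too. These 4 adipocyte markers summed to 1.67, 9.88, 1.04 and 0.858 CPM in control 1, control 2, Mps1sKO 1 and Mps1sKO 2, while *Plin1*, the fifth, was lowest in control 2 at 11.9 CPM against 18.8 to 24.0 and brought the sum of all 5 to between 20.4 and 24.9 CPM. The marker sums for germ cells (570 to 956 CPM) and differentiating spermatogonia (231 to 392) were highest in control 2 and lowest in Mps1sKO 2, while those for undifferentiated spermatogonia lay between 198 and 254. Leydig cell markers summed to 667 to 778 CPM, peritubular myoid markers to 853 to 981, endothelial markers to 123 to 137 and red blood cell markers to 72.5 to 88.3. The 7 macrophage markers summed to 136 to 153 CPM, and the 4 neutrophil markers to 1.60 and 1.73 CPM in control and 0.432 and 0.336 in Mps1sKO libraries. Of these, *S100a8* (29 and 28 counts in control, 4 and 6 in Mps1sKO) and *S100a9* (14 and 18 counts, and 4 and 2) were lower in both Mps1sKO libraries, with log2 fold changes of −2.33 and −2.21 (edgeR adjusted p = 0.494 for each), and *Ly6g* and *Mpo* were at or near 0. The part of these cell types in the levels of the immediate early genes was not tested.

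On GRCm38, *Jun* lies on the minus strand at chr4:95049034-95052222 and is a single exon, as are *Junb* (chr8:84974484-84978718, minus), *Jund* (chr8:70698949-70700616, plus) and *Ier2* (chr8:84661331-84662852, minus). *Fos* (chr12:85473890-85477273, plus) and *Fosl2* (chr5:32135801-32157842, plus) have 4 exons, *Fosb* (chr7:19302696-19310051, minus) has 3 to 5 by transcript, *Fosl1* (chr19:5447547-5455946, plus) has 3 or 4, and *Atf3* (chr1:191170296-191218039, minus) has 4. *Jun* shares 232 exonic bases with *Junos* on the opposite strand, which had 57 to 93 counts, and *Jund* shares 877 with *Gm11175*, which had 0 in every library.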

How the data were processed

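Total RNA of 4 whole P10 testis samples was sequenced as 150 bp paired-end reads from NEBNext Ultra libraries. The submitters' processing notes name HISAT2 2.0.5, featureCounts, DESeq2 1.16.1 and mm10, and the strandedness and counting options are not given in the sources used here. The authors deposited raw counts per locus for all 4 libraries in 1 table, and they deposited FPKM values, scaled by gene length and library size, beside them. Groups follow the labelled genotype. The table had 0 other per-sample columns.

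The test was that of edgeR 4.0.16 under R 4.3.3 (filterByExpr, TMM, two-sided quasi-likelihood test on genotype, Benjamini-Hochberg over 20561 loci), which had a common biological coefficient of variation of 0.106. With 2 libraries per group an exact permutation test cannot go below p = 0.333. CPM are counts scaled to TMM library sizes. DESeq2 1.42.0, limma-voom (limma 3.58.1), other size factors, other filters on low counts, a robust dispersion, annotated genes only, the replicate number as a block and leaving out each library were alternatives, and a GC offset was added after seeing the data. The steps were tested on simulated data. Gene models are those of GENCODE M21, and promoters are from RefSeq. The members and lists were chosen with earlier results of these data known. Beside all members, the rule named the list genes of at least 1 CPM with the smallest unadjusted p, at most 6 other immediate early genes, 4 partners, 4 upstream genes and 3 heat shock genes. Of the genes so named, 1 is not reported here. The marker lists were of Sertoli, Leydig, peritubular myoid, macrophage, endothelial, adipocyte, red blood and neutrophil cells and of spermatogonia, meiotic and germ cells.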

Additional observations from a re-analysis of the deposited data

How the results depend on the processing

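With 2 libraries a genotype, single libraries limit every value here. Without the filter on low counts, 2 members and 2 companion genes passed an adjusted p of 0.05 (0 and 0 with it). There 390 of 35262 loci passed (6 of 20561 with the filter), and a wider set of loci with few counts entered the estimate of the spread. With each library left out in turn, 0 to 2 members and 0 to 3 companion genes passed, all of them when control 1 was left out, and 0 to 5 members had an unadjusted p below 0.05, with 0 when control 2 was left out. In these fits the log2 fold changes ranged from −0.20 to 0.38 for *Atf3*, from −0.30 to 0.50 for *Jund*, from −0.22 to 0.17 for *Fosb* and from −0.15 to 0.26 for *Ier2*, and so changed sign, while those of the other 6 members kept theirs, between −1.63 and −0.13 for *Junb* and between 0.13 and 0.55 for *Jun*. *Atf3* was at −0.20 without control 1 and at −0.07 without Mps1sKO 2, *Jund* at −0.07 without control 2 and at −0.30 without Mps1sKO 2, *Fosb* at 0.17 and 0.12 in the same fits, and *Ier2* at −0.15 without Mps1sKO 2. The cause was not tested. Each fit without a library left a genotype with a single library, so its counts of passing genes carry little weight. Over all tested loci too, more passed when control 1 was left out than when any other library was. Fewest of all tested loci had an unadjusted p below 0.05 when control 2 was left out. With a replicate block, 0 members passed (median log2 fold change −0.14, lowest adjusted p of a member 0.915), where 2 of 20561 loci did. Replicate differences of the genotypes were correlated at −0.289 (Pearson, across 17046 loci, which are not independent). The labels do not say whether libraries of the same number were paired, and beyond this block and correlation a pairing was not tested. DESeq2, limma-voom, other size factors, library totals, the robust dispersion, at least 10 counts in every library, annotated genes only and the GC offset left the number of passing members and companion genes at 0. The order of the levels and the nearest 10 loci to *Fos* were kept under their alternatives.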
